A study of Saccharomyces cerevisiae with 12 samples.

Results

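The genes measured here encode the proteins of the small subunit of the cytosolic ribosome of budding yeast, Saccharomyces cerevisiae. They were taken as every gene whose annotated symbol is RPS, a number and an optional A or B, which gave 55 of the 5636 genes on the array. Of these, 48 form 24 pairs of A and B copies, and 7 are present as 1 gene (RPS2, RPS3, RPS12, RPS13, RPS15, RPS20 and RPS31). Total RNA of 3 deletion strains was compared with wild-type RNA on 12 2-colour microarrays, with 4 arrays a strain. By their labels the strains lacked GCR1, NUP84 or both genes, and each was grown in 2% glucose and hybridised against wild type in 2% glucose. The labels give no strain background, no construction of the deletions and no growth phase, and they do not say whether the 3 strains were set against the same wild-type RNA.

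Small subunit proteins bind the small ribosomal RNA in the nucleolus, and the finished subunit decodes messenger RNA in the cytoplasm. In yeast their genes are among the most highly transcribed in growing cells, and most are kept as duplicated copies that encode identical or nearly identical proteins. Their promoters are known for the activators Rap1, Fhl1 and Ifh1, and transcription follows nutrient supply and growth rate through the TORC1 and protein kinase A pathways. Gcr1 is an activator best known for glycolytic genes that also binds ribosomal protein promoters together with Rap1. Nup84 is a scaffold protein of the nuclear pore.

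Every value below is a log2 ratio of deletion strain over wild type unless a fold is named, so a value below 0 is a lower transcript level in the deletion strain. Base 2 was assumed for the deposited log ratios, and the folds rest on it. The error is the standard error (SE) from limma, moderated and pooled over the 3 strains, with n = 2 biological samples a strain. A gene was called at an adjusted p under 0.05 over all 5636 genes. NUP84 read -3.19 ± 0.24 in the nup84 null and -2.74 ± 0.24 in the labelled double null. GCR1 went against its label, with rises of 1.08 ± 0.21 in the labelled gcr1 null and 0.78 ± 0.21 in the labelled double null (limma, adjusted p = 0.00453 and 0.0174). It also read above 0 on every array of the nup84 null, at 0.47 ± 0.21, without a call (limma, adjusted p = 0.158). NUP84 read -0.49 ± 0.24 in the labelled gcr1 null (limma, adjusted p = 0.155). Where in the gene the GCR1 probes lie was not known. The strains are called the labelled gcr1 null and the labelled double null throughout, and each direction given for them rests on those labels. Ratios are relative to the RNA of each sample, so a change in RNA per cell was not measured. The number of arrays limits the precision of all values.

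Transcripts of all 55 small subunit protein genes fell in the labelled gcr1 null, where 17.7% of all genes were called lower. The median member stood at -2.27, which is 4.81-fold lower than wild type, while the median of all genes was 0.03. The members spread over an SD of 0.32, from RPS26B at -2.99 to RPS9A at -1.38. On each of the 4 arrays every member lay below 0, as did 32.1% of all genes. The member medians on arrays 1 to 4 were -1.83, -2.10, -2.28 and -2.93. With limma, 53 of 55 were called without the sample of arrays 2 and 4, when RPS9A missed the threshold (adjusted p = 0.101).

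The fall in the nup84 null was smaller by its median and almost as general, with 52 of 55 members called lower against 8.09% of all genes. The median was -1.13, or 2.19-fold lower, and the SD over members was 0.18. RPS26B was again the lowest gene at -1.63, and RPS30A was the highest at -0.68. The members that were not called were RPS0A (-0.88, adjusted p = 0.0527), RPS15 (-0.81, adjusted p = 0.0989) and RPS30A (-0.68, adjusted p = 0.051), all of which lay below 0 on all 4 arrays. So did the other members, and 29.5% of all genes. Array medians were -0.73, -0.99, -1.25 and -1.54. The count fell to 0 of 55 without either sample of this strain, which left 1 sample whose spread was taken from the other strains.

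All 55 members also fell in the labelled double null, where 18.9% of all genes were called lower. The median was -2.11, or 4.32-fold lower, with an SD over members of 0.39. RPS26B marked the low end at -3.12 and RPS30A the high end at -1.24. Every member lay below 0 on all 4 arrays, as did 25.8% of all genes. Medians on arrays 1 to 4 were -1.57, -1.76, -2.34 and -2.84.

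**Figure D1:**
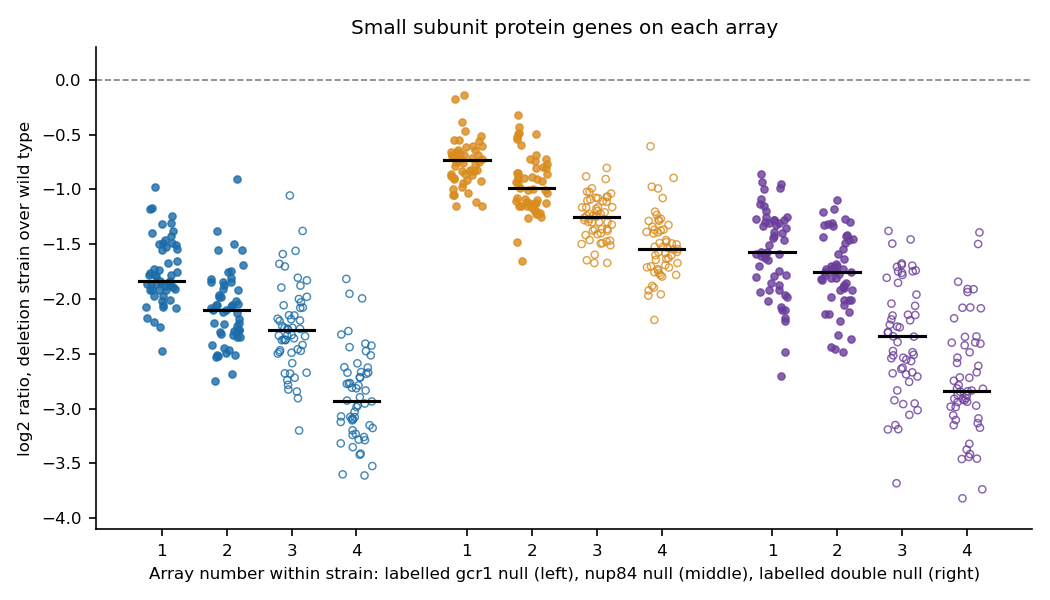
Log2 ratio of deletion strain over wild type (vertical axis) of the 55 small subunit protein genes on each of the 12 arrays (horizontal axis), with filled points for arrays with the deletion strain in Cy5, open points for arrays with it in Cy3, and a black line at the median. Every point lies below 0, the medians of the nup84 null run from -0.73 to -1.54, and those of the labelled gcr1 null from -1.83 to -2.93.

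The dye carried by the deletion strain moved with the size of the fall. Arrays 1 and 2 of each strain held the deletion strain in Cy5 and arrays 3 and 4 in Cy3. All 55 members read lower on the Cy3 arrays in each of the 3 strains, with median differences of -0.61, -0.50 and -0.91 in the labelled gcr1 null, the nup84 null and the labelled double null. For comparison, 65.6%, 64.7% and 65.6% of all genes read lower there. The gap was widest for RPS31, made as a fusion to ubiquitin, in the labelled gcr1 null, where its Cy3 mean minus its Cy5 mean was -1.46. RPS2, a protein of the messenger RNA entry channel, had the widest gap in the other strains, at -1.39 and -1.67. RPS26A had the narrowest gap in the nup84 null and the labelled double null, at -0.17 and -0.19. The fall was present in both orientations: with the Cy5 arrays alone, the member medians were -1.93, -0.86 and -1.59 and 55, 38 and 55 genes were called lower. The Cy3 arrays alone gave -2.63, -1.37 and -2.62 and 55, 54 and 55 calls. These fits by orientation were chosen after seeing the data.

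The biological samples also differed. With arrays 1 and 3 as sample 1 and arrays 2 and 4 as sample 2, the member medians were -2.06 and -2.56 in the labelled gcr1 null. The corresponding medians were -0.98 and -1.28 in the nup84 null, and -1.93 and -2.35 in the labelled double null. Sample 2 was the lower one for 55, 50 and 42 of the 55 members. The order of members was shared between samples of a strain, with Pearson's r across the 55 genes of 0.85, 0.72 and 0.69. Genes are not independent replicates, and both samples share array design and probes.

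The members were also grouped by region of the subunit and by copy. The 21 genes of the head had medians of -2.26, -1.07 and -2.12 in the labelled gcr1 null, the nup84 null and the labelled double null. The 34 genes of the body and platform had -2.29, -1.17 and -2.07. The 7 genes without a second copy read -2.27, -1.0 and -2.03. Among duplicated genes, the 24 A copies had medians of -2.22, -1.14 and -2.08 and the 24 B copies -2.35, -1.17 and -2.23. Differences between these groups were not tested.

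RPS2 (YGL123W) and RPS3 (YNL178W) encode proteins that line the path of messenger RNA into the subunit. RPS2 read -1.86, -2.10, -2.91 and -3.52 on arrays 1 to 4 of the labelled gcr1 null. In the nup84 null it read -0.18, -0.43, -1.46 and -1.92, and in the labelled double null -1.74, -1.89, -3.15 and -3.82. The nup84 arrays with the deletion strain in Cy5 lay nearer 0 than its Cy3 arrays, and the lowest of the 4 overlapped the Cy5 arrays of the other strains. The fitted values were -2.60 ± 0.23, -1.0 ± 0.23 and -2.65 ± 0.23 (adjusted p = 0.000132, 0.0206 and 0.000114).

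RPS3, which is escorted to the ribosome by the chaperone Yar1, was among the 4 lowest members in the nup84 null. Its values there were -0.83, -1.16, -1.67 and -1.96. It read -1.74, -1.97, -2.48 and -2.95 in the labelled gcr1 null and -1.38, -1.73, -2.55 and -3.44 in the labelled double null. All arrays lay below 0, and the nup84 values overlapped those of both other strains. The fits gave -2.29 ± 0.23, -1.41 ± 0.23 and -2.28 ± 0.23 (adjusted p = 0.000228, 0.00806 and 0.000201).

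RPS15 (YOL040C), a head protein known to be needed for export of the subunit from the nucleus, was among the 4 highest members in the nup84 null, with -0.55, -0.59, -0.88 and -1.23. It read -1.55, -2.22, -2.03 and -2.90 in the labelled gcr1 null and -1.0, -1.81, -1.74 and -3.13 in the labelled double null. Its arrays in the labelled double null ran from within the nup84 range to far below it. It had the largest SE of all members, 0.30. The fitted values were -2.17, -0.81 and -1.92, and the fall was called in the labelled gcr1 null (adjusted p = 0.00103) and the labelled double null (adjusted p = 0.00151). The main fit did not call it in the nup84 null (adjusted p = 0.0989). With arrays treated as independent replicates, RPS15 was called lower there too (adjusted p = 0.0400). That setting counts arrays of the same sample as separate samples, so its p does not measure the spread between samples.

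RPS18B (YML026C), 1 of 2 genes for a head protein that contacts the large subunit, was the second lowest member in the labelled double null, with -2.10, -2.46, -2.96 and -3.46. Arrays 1 to 4 gave -2.02, -2.42, -2.50 and -3.08 in the labelled gcr1 null and -0.83, -1.19, -1.38 and -1.88 in the nup84 null. Each array of the labelled double null lay below the array of the same number in the other strains. The fitted values were -2.74 ± 0.23, -2.50 ± 0.23 and -1.32 ± 0.23 in that order (adjusted p = 0.000114, 0.000162 and 0.00942).

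RPS21A (YKR057W), which encodes a partner of the Rps0 protein, had the second largest fall in the nup84 null, with -1.15, -1.48, -1.51 and -1.71. In the labelled gcr1 null it read -1.88, -2.32, -2.33 and -2.67, and in the labelled double null -2.10, -2.48, -2.69 and -2.94. Every array of the labelled gcr1 null and the labelled double null lay below all nup84 arrays. The fits gave -1.46 ± 0.22, -2.30 ± 0.22 and -2.55 ± 0.22 in that order (adjusted p = 0.00569, 0.000164 and 0.000114).

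**Figure D2:**
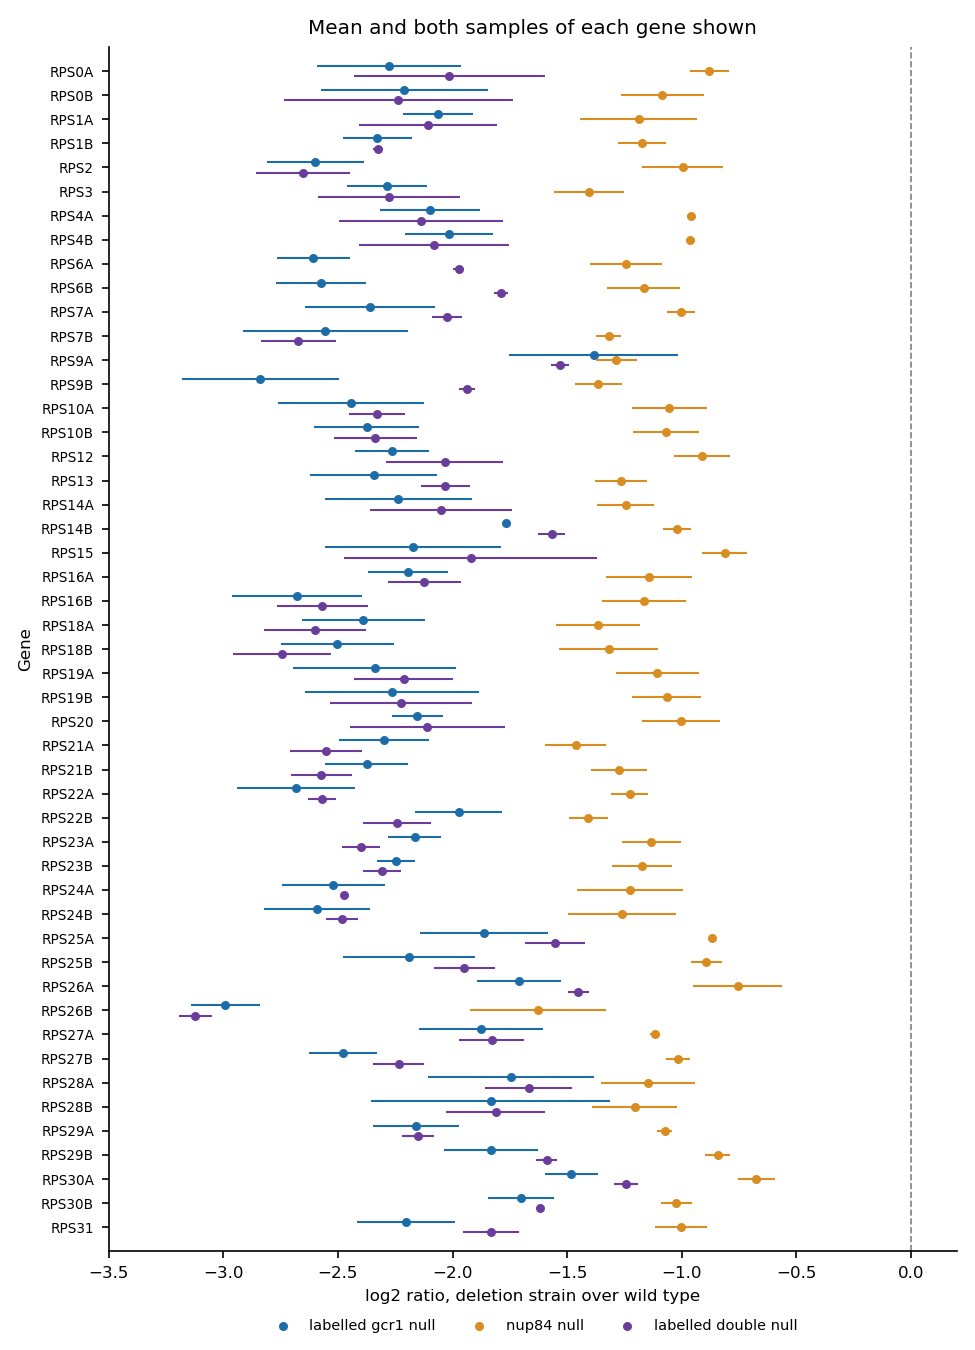
Mean log2 ratio of deletion strain over wild type (dots, horizontal axis) of 49 of the 55 genes (vertical axis), in 3 colours for the strains, with a line that joins the values of sample 1 (arrays 1 and 3) and sample 2 (arrays 2 and 4). RPS26B is the lowest gene in all 3 strains, at -2.99, -1.63 and -3.12, and RPS30A is the highest in the nup84 null and the labelled double null, at -0.68 and -1.24.

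The comparison between the nup84 null and the labelled gcr1 null asks whether the extent of the fall differed. It was smaller in the nup84 null for every member, with a median difference of 1.15 (nup84 null minus gcr1 null), from RPS9A at 0.10 to RPS2 at 1.60. All 4 arrays of the labelled gcr1 null lay below all 4 nup84 arrays for 43 of 55 members and for 11.8% of all genes. With limma, 0 members passed the adjusted threshold, where 0.124% of all genes were called higher in the nup84 null, and the smallest adjusted p was 0.0763, for RPS27B. At an unadjusted p under 0.05, 51 members passed, against 6.56% of all genes. The count rests on which arrays are taken as dye swaps of each other. Over all genes, array 1 minus array 2 correlated with array 3 minus array 4. Pearson's r was 0.78 in the labelled gcr1 null, 0.70 in the nup84 null and 0.88 in the labelled double null. Swaps of 1 with 3 and 2 with 4 would give a positive r, and swaps of 1 with 4 and 2 with 3 a negative one. Means over the latter would then mix samples and understate their spread. With arrays 1 and 4 and arrays 2 and 3 as swaps, 54 members were called, and with dye orientation as a block over arrays 52 were.

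Between the labelled double null and the labelled gcr1 null, the median difference of the members (double null minus gcr1 null) was 0.11, from RPS22B at -0.27 to RPS9B at 0.90. For 0 members did the 4 arrays of either strain lie wholly below those of the other, as they did for 4.1% and 2.18% of all genes. With limma, 0 members were called at the adjusted threshold, 0% of all genes were called in either direction, and the smallest adjusted p was 0.717, for RPS9B. At an unadjusted p under 0.05, 2 members were higher in the labelled double null, against 4.51% of all genes. With arrays 1 and 4 and arrays 2 and 3 as swaps, 15 members were called.

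By their means, 40 of 55 members read higher in the labelled double null than in the labelled gcr1 null and 15 read lower. Among the higher, RPS9B read -2.84 and -1.94 in the labelled gcr1 null and the labelled double null, and RPS6B, a target of growth-dependent phosphorylation, read -2.57 and -1.79. RPS6A read -2.61 and -1.97. Among the lower, RPS9A read -1.38 and -1.53. These differences did not pass the adjusted threshold.

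Against the nup84 null, the members were lower in the labelled double null by every mean. The median difference (double null minus nup84 null) was -1.08, from RPS2 at -1.66 to RPS9A at -0.25. All arrays of the labelled double null lay below all nup84 arrays for 27 of 55 members and for 7.15% of all genes. With limma, 0 members were called at the adjusted threshold (0.106% of all genes were called lower), with a smallest adjusted p of 0.0598 for RPS2. At an unadjusted p under 0.05, 42 members were lower, against 6.87% of all genes. With arrays 1 and 4 and arrays 2 and 3 as swaps, 53 were called.

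The value in the labelled double null was also set against the sum of both other strains, the value that additive changes on the log2 scale would give. All 55 members lay above that sum, by a median of 1.18, from RPS4B at 0.90 to RPS9B at 2.26. With limma, 0 members were called at the adjusted threshold, as were 0% of all genes, with a smallest adjusted p of 0.0731 for RPS9B. At an unadjusted p under 0.05, 51 were higher, against 8.77% of all genes. With arrays 1 and 4 and arrays 2 and 3 as swaps, 55 were called. Scaling the arrays to a common spread gave 50 calls.

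The A and B copies of a protein were compared within each array, so that dye orientation and sample are shared by both. In most pairs the copies moved together. The absolute difference between copies had a median of 0.12 in the labelled gcr1 null, 0.08 in the nup84 null and 0.22 in the labelled double null, while members of different pairs differed by medians of 0.31, 0.18 and 0.39. The copies were within 0.1 of each other in 11, 15 and 6 of the 24 pairs. With limma over all 61 A and B pairs of the array, the copies were called different in 8 of 24 pairs in the labelled gcr1 null, 2 in the nup84 null and 11 in the labelled double null. Of all 61 pairs, 32.8%, 13.1% and 47.5% were called, so these shares are close to those of the whole set. That set holds these 24 pairs and 32 pairs of RPL genes, so it is no background of paralogues in general. Copies of ribosomal protein genes are nearly identical in sequence, and whether each probe reads only its own copy was not checked.

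**Figure D3:**
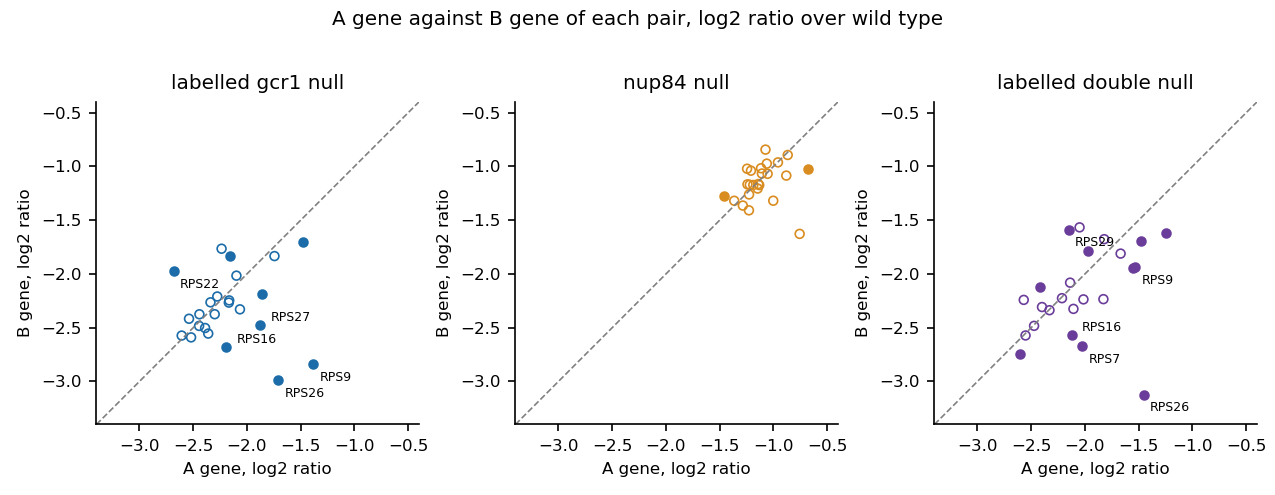
Mean log2 ratio of the A gene (horizontal axis) against that of the B gene (vertical axis) for the 24 pairs, 1 panel a strain, with the dashed line at equality and filled points for pairs called different. RPS26 lies farthest below the line in the labelled double null, with an A minus B difference of 1.67, and RPS9 does so in the labelled gcr1 null, at 1.45.

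The widest gap on average was between the genes of Rps26, a protein of the messenger RNA exit channel that the chaperone Tsr2 delivers. RPS26A (YGL189C) read -1.38, -1.49, -1.68 and -2.29 on arrays 1 to 4 of the labelled gcr1 null, and RPS26B (YER131W) read -2.48, -2.68, -3.20 and -3.60. In the nup84 null, RPS26A read -0.82, -0.52, -1.08 and -0.61, and RPS26B -0.99, -1.65, -1.67 and -2.19. The values in the labelled double null were -1.30, -1.42, -1.70 and -1.39 for RPS26A and -2.70, -2.36, -3.68 and -3.74 for RPS26B. RPS26B was lower than RPS26A on all 12 arrays, and RPS26B was the lowest member and RPS26A among the 4 highest members in each strain. The A minus B difference was 1.28 ± 0.23 in the labelled gcr1 null (adjusted p = 0.0155), 0.87 ± 0.23 in the nup84 null (adjusted p = 0.0661) and 1.67 ± 0.23 in the labelled double null (adjusted p = 0.00435). The nup84 samples disagreed on its size, at 0.38 and 1.36. In the labelled gcr1 null the call was lost without either of its samples (adjusted p = 0.134 and 0.142).

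Rps9 sits in the body near the messenger RNA entrance and bears on the accuracy of decoding. On arrays 1 to 4 of the labelled gcr1 null, RPS9A (YPL081W) read -0.97, -1.55, -1.06 and -1.95 and RPS9B (YBR189W) -2.25, -2.75, -2.74 and -3.61. RPS9A read -1.15, -1.23, -1.24 and -1.52 in the nup84 null, where RPS9B read -1.11, -1.16, -1.41 and -1.78. In the labelled double null they read -1.20, -1.21, -1.78 and -1.94 and -1.57, -1.34, -2.24 and -2.61, in that order. In the labelled gcr1 null, RPS9A was the member that fell least and RPS9B the second lowest, and the arrays of the copies did not overlap. Those in the nup84 null did overlap. A minus B came to 1.45 ± 0.06 in the labelled gcr1 null (adjusted p = 2.03e-05), 0.08 ± 0.06 in the nup84 null (adjusted p = 0.481) and 0.41 ± 0.06 in the labelled double null (adjusted p = 0.0037). The gap in the labelled gcr1 null exceeded that in the nup84 null (nup84 null minus gcr1 null, -1.37 ± 0.08, adjusted p = 0.000365) and that in the labelled double null (double null minus gcr1 null, -1.05 ± 0.08, adjusted p = 0.0016).

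Rps7 is a body protein with a role in maturation of the small ribosomal RNA. Arrays 1 to 4 of the labelled gcr1 null gave -2.01, -2.30, -2.15 and -2.99 for RPS7A (YOR096W) and -1.97, -2.51, -2.42 and -3.32 for RPS7B (YNL096C). The nup84 arrays gave -0.72, -0.92, -1.16 and -1.20 for RPS7A and -1.04, -1.26, -1.49 and -1.49 for RPS7B. The labelled double null gave -1.61, -1.70, -2.30 and -2.49 for RPS7A and -2.48, -2.14, -3.19 and -2.88 for RPS7B. RPS7B was the lower copy on every array except array 1 of the labelled gcr1 null, and it was the third lowest member in the labelled double null. The fitted difference, A minus B, was 0.19 ± 0.12 in the labelled gcr1 null (adjusted p = 0.246), 0.32 ± 0.12 in the nup84 null (adjusted p = 0.164) and 0.65 ± 0.12 in the labelled double null (adjusted p = 0.0122). The samples of the labelled double null gave 0.88 and 0.42.

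Rps29 is a small zinc-binding protein of the head. With the labelled gcr1 null, RPS29A (YLR388W) stood at -1.67, -1.98, -2.28 and -2.72 on arrays 1 to 4 and RPS29B (YDL061C) at -1.42, -1.75, -1.83 and -2.32. With the nup84 null the values of RPS29A were -0.78, -0.85, -1.30 and -1.37 and those of RPS29B -0.76, -0.69, -1.04 and -0.89. Those of the labelled double null were -1.65, -1.77, -2.51 and -2.67 for RPS29A and -1.28, -1.43, -1.81 and -1.84 for RPS29B. RPS29A was the lower copy on all 12 arrays. Fitted as A minus B, the gap was -0.33 ± 0.05 in the labelled gcr1 null (adjusted p = 0.0146), -0.23 ± 0.05 in the nup84 null (adjusted p = 0.0612) and -0.56 ± 0.05 in the labelled double null (adjusted p = 0.00274). The call in the labelled gcr1 null was lost without either of its samples (adjusted p = 0.116 and 0.139).

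Rps16 reaches with its tail toward the transfer RNA in the peptidyl site. RPS16A (YMR143W) read -1.84, -2.06, -2.20 and -2.68 on arrays 1 to 4 of the labelled gcr1 null, and RPS16B (YDL083C) read -2.07, -2.52, -2.72 and -3.41. In the nup84 null, RPS16A read -0.73, -1.09, -1.18 and -1.57, and RPS16B -0.72, -0.99, -1.24 and -1.70. The values in the labelled double null were -1.59, -1.68, -2.34 and -2.88 for RPS16A and -1.98, -2.12, -2.76 and -3.42 for RPS16B. RPS16B was lower than RPS16A on all arrays of the labelled gcr1 null and the labelled double null. In the nup84 null the order followed dye orientation, with RPS16A lower on the Cy5 arrays and RPS16B lower on the Cy3 arrays. The A minus B difference was 0.48 ± 0.06 in the labelled gcr1 null (adjusted p = 0.00911), 0.02 ± 0.06 in the nup84 null (adjusted p = 0.883) and 0.45 ± 0.06 in the labelled double null (adjusted p = 0.00554). The gap differed between the nup84 null and the labelled gcr1 null (-0.46 ± 0.09, adjusted p = 0.0384). In the labelled gcr1 null it was not called without the sample of arrays 2 and 4 (adjusted p = 0.0556).

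Rps30 is a short basic protein of the body. On arrays 1 to 4 of the labelled gcr1 null, RPS30A (YLR287C-A) read -1.17, -1.38, -1.56 and -1.82 and RPS30B (YOR182C) -1.31, -1.69, -1.81 and -1.99. RPS30A read -0.39, -0.54, -0.80 and -0.98 in the nup84 null, where RPS30B read -0.75, -0.89, -1.16 and -1.29. In the labelled double null they read -0.93, -1.09, -1.46 and -1.50 and -1.28, -1.31, -1.96 and -1.91, in that order. RPS30A was higher than RPS30B on all 12 arrays, and it was the highest member in the nup84 null and the labelled double null. A minus B came to 0.22 ± 0.05 in the labelled gcr1 null (adjusted p = 0.0222), 0.35 ± 0.05 in the nup84 null (adjusted p = 0.0236) and 0.37 ± 0.05 in the labelled double null (adjusted p = 0.0037). Of 24 alternative settings, the call was lost under 5 in the labelled gcr1 null and under 4 in the nup84 null. In each strain these included the fits without either of its own samples.

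Rps27 is a zinc-binding protein. Arrays 1 to 4 of the labelled gcr1 null gave -1.32, -1.87, -1.90 and -2.43 for RPS27A (YKL156W) and -1.87, -2.28, -2.78 and -2.97 for RPS27B (YHR021C). The nup84 arrays gave -0.91, -0.99, -1.28 and -1.29 for RPS27A and -0.61, -0.77, -1.32 and -1.37 for RPS27B. The labelled double null gave -1.80, -1.29, -2.14 and -2.08 for RPS27A and -1.57, -1.90, -2.68 and -2.79 for RPS27B. RPS27B was lower than RPS27A on all arrays of the labelled gcr1 null. In the nup84 null the order followed dye orientation, with RPS27A lower on the Cy5 arrays and RPS27B lower on the Cy3 arrays. In the labelled double null RPS27A was the lower copy on array 1 only. The fitted difference, A minus B, was 0.60 ± 0.13 in the labelled gcr1 null (adjusted p = 0.0243), -0.10 ± 0.13 in the nup84 null (adjusted p = 0.719) and 0.41 ± 0.13 in the labelled double null (adjusted p = 0.0578). The call in the labelled gcr1 null was lost under 5 of 24 alternative settings. These included the fits without either of its samples and without either nup84 sample.

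Rps22 binds the central domain of the small ribosomal RNA. With the labelled gcr1 null, RPS22A (YJL190C) stood at -2.17, -2.53, -2.68 and -3.35 on arrays 1 to 4 and RPS22B (YLR367W) at -1.49, -1.85, -2.08 and -2.48. With the nup84 null the values of RPS22A were -0.88, -1.13, -1.42 and -1.49 and those of RPS22B -1.05, -1.22, -1.60 and -1.76. Those of the labelled double null were -2.20, -2.20, -3.06 and -2.82 for RPS22A and -1.70, -1.88, -2.49 and -2.91 for RPS22B. The order of the copies turned between strains: RPS22A was the lower copy on all arrays of the labelled gcr1 null and the higher copy on all arrays of the nup84 null. Fitted as A minus B, the gap was -0.71 ± 0.11 in the labelled gcr1 null (adjusted p = 0.0112), 0.18 ± 0.11 in the nup84 null (adjusted p = 0.345) and -0.33 ± 0.11 in the labelled double null (adjusted p = 0.0578). The gap differed between the nup84 null and the labelled gcr1 null (0.89 ± 0.15, adjusted p = 0.0265). Its call in the labelled gcr1 null was lost without either of that strain's samples (adjusted p = 0.116 and 0.142).

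**Figure D4:**
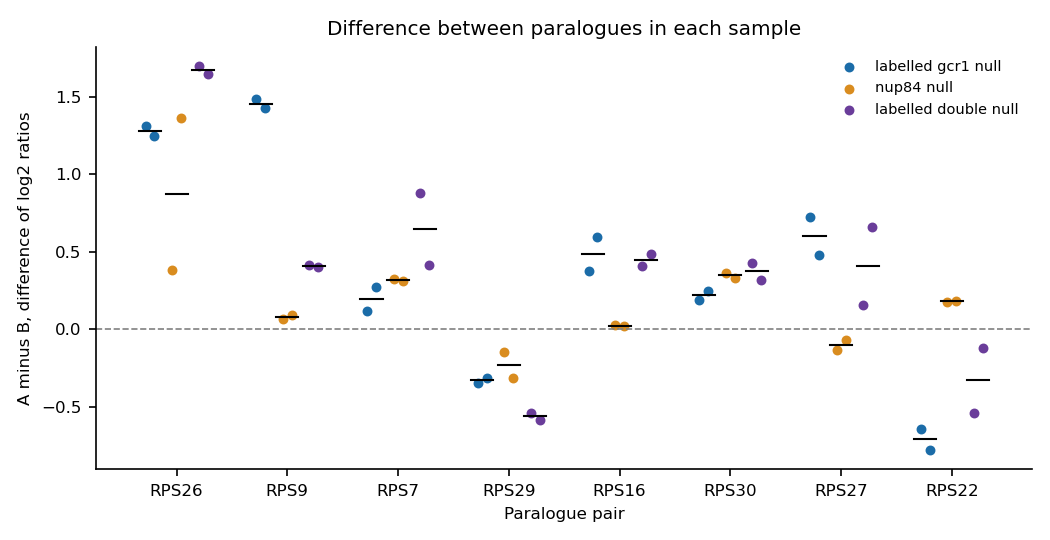
A minus B difference of log2 ratios (vertical axis) for the 8 pairs above (horizontal axis), with dots for the 2 samples of each strain, colours for strains and a black line at the mean. RPS9 stands at 1.45 in the labelled gcr1 null and 0.08 in the nup84 null, and RPS22 changes sign from -0.71 to 0.18.

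Smaller gaps were called in other pairs. The genes of Rps25, a head protein, differed by 0.33 ± 0.05 in the labelled gcr1 null and 0.40 ± 0.05 in the labelled double null (adjusted p = 0.0112 and 0.0037), with RPS25B lower, and by 0.03 in the nup84 null. The copies of RPS21 differed in the nup84 null by -0.19 ± 0.04, with RPS21A lower (adjusted p = 0.0424). In the labelled double null, RPS6 (-0.19) and RPS18 (0.14) were among the pairs called too (adjusted p = 0.0197 and 0.0391). Among the closest matches, the genes of Rps24 differed by 0.07, 0.03 and 0.01 in the 3 strains, and those of Rps10 by -0.07, 0.01 and 0.01. Pairs called in no strain were not all this close. RPS0 differed by -0.07, 0.20 and 0.22, and RPS1 by 0.26, -0.015 and 0.22.

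Across strains, the A minus B difference itself was called different between the nup84 null and the labelled gcr1 null for 5 of 24 pairs (RPS9, RPS16, RPS21, RPS22 and RPS25), against 18% of all 61 pairs. Between the labelled double null and the labelled gcr1 null it was called for RPS9, against 4.92% of all pairs. Between the labelled double null and the nup84 null it was called for RPS25, against 8.2%. Most of these 61 pairs are ribosomal, the 24 included. Without 1 sample of the labelled gcr1 null or the nup84 null, by the pairing of arrays 1 with 3 and 2 with 4, the first of these counts was 1 or 2. RPS14 is a case in which 1 probe matters: RPS14A and RPS14B differed by -0.47 in the labelled gcr1 null (adjusted p = 0.129), and RPS14B read -1.65, -0.91, -1.88 and -2.63 on its arrays. Array 2 stands well above the others there, and the 2 probes of RPS14B lay 0.637 apart in the strain mean, the only member with probes more than 0.5 apart.

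The large subunit of the ribosome changed alongside. Of its 80 protein genes, 79, 71 and 78 were called lower in the labelled gcr1 null, the nup84 null and the labelled double null, with medians of -2.29, -1.09 and -2.09. Beside these, 17.7%, 8.09% and 18.9% of all genes were called lower. The small subunit medians were -2.27, -1.13 and -2.11, and the difference between the subunits was not tested. The small subunit gene nearest 0 in each strain stood at -1.38, -0.68 and -1.24, while RPL15B of the large subunit read -0.14, -0.30 and 0.04. Proteins that sit on the finished small subunit followed: ASC1, which encodes a scaffold on the head, read -2.36 ± 0.22, -1.34 ± 0.22 and -2.28 ± 0.22 in the 3 strains (adjusted p = 0.000167, 0.00808 and 0.000171). STM1 and GIS2, for ribosome-associated proteins, were called lower in all 3 strains as well, at -1.55, -0.78 and -1.67, and at -1.43, -1.07 and -1.23.

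Dedicated chaperones and late assembly factors of the small subunit had medians nearer 0 than the proteins they serve, a difference that was not tested. Of 21 such genes, 12, 3 and 16 were called lower and 0 higher, with medians of -0.91, -0.48 and -1.01. Of all genes, 17.7%, 8.09% and 18.9% were called lower and 17.2%, 8.61% and 20.5% higher, so the 3 of 21 in the nup84 null are not far from the background. TSR2, the chaperone of Rps26, read -1.40, -1.25, -1.86 and -1.95 in the labelled gcr1 null, -0.26, -1.26, -0.89 and -1.70 in the nup84 null and -2.02, -0.90, -2.94 and -1.65 in the labelled double null. Its arrays lay below 0 throughout, and it was called in the labelled gcr1 null (-1.61 ± 0.32, adjusted p = 0.00528) and the labelled double null (-1.88 ± 0.32, adjusted p = 0.00229) but not in the nup84 null (-1.03, adjusted p = 0.0594). YAR1, the chaperone of Rps3, was called in all 3 strains at -1.04, -0.73 and -0.94. So were TSR3, which modifies the small ribosomal RNA, at -0.73, -1.12 and -1.33, and PNO1, a binding partner of pre-ribosomal RNA, at -0.93, -0.76 and -1.01. FAP7, a partner of Rps14, was called in the labelled gcr1 null (-1.25) and the labelled double null (-1.22). TSR4, the chaperone of Rps2, was called in the labelled double null (-0.93, adjusted p = 0.0266).

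Regulators of ribosomal protein genes showed no common direction. Of 18 listed, 4 were lower and 2 higher in the labelled gcr1 null, 1 was lower in the nup84 null, and 2 were lower and 3 higher in the labelled double null. Of all genes, 17.7%, 8.09% and 18.9% were called lower and 17.2%, 8.61% and 20.5% higher, and nothing is read from the list's counts. The genes called higher were GCR1 itself and CRF1 in both strains labelled as gcr1 null, and TOD6 in the labelled double null. HMO1, which encodes a high mobility group protein found at ribosomal protein promoters, was lower in all 3 strains, at -1.18 ± 0.24, -0.93 ± 0.24 and -1.20 ± 0.24 (adjusted p = 0.00575, 0.0322 and 0.00481). RAP1 was lower in the labelled gcr1 null (-0.74, adjusted p = 0.0207) and the labelled double null (-0.87, adjusted p = 0.00895) while the nup84 null gave -0.66 (adjusted p = 0.0546). ABF1 (-0.79) and TBF1 (-0.67), for general regulatory factors, were called lower in the labelled gcr1 null. FHL1 and IFH1, whose products carry activation at these promoters, were not called in any strain, with FHL1 at -0.04, -0.10 and -0.03 and IFH1 at -0.17, -0.03 and -0.28. Some of these means join samples of opposite sign. In the labelled double null, samples 1 and 2 gave -0.36 and 0.29 for FHL1 and -0.96 and 0.40 for IFH1. In the nup84 null IFH1 gave 0.30 and -0.37.

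CRF1, whose product is a co-repressor of ribosomal protein genes, was called higher in the labelled gcr1 null (0.95 ± 0.22, adjusted p = 0.0105) and the labelled double null (1.28 ± 0.22, adjusted p = 0.00223), but its values split by dye. It read -0.03, -0.26, 2.39 and 1.70 on arrays 1 to 4 of the labelled gcr1 null and 0.18, 0.04, 2.32 and 2.60 on those of the labelled double null. The arrays with the deletion strain in Cy5 lay near 0 and those with it in Cy3 far above. The nup84 arrays read -0.44, -1.33, 0.96 and 1.10, with the same split around 0. Each strain's mean holds both orientations equally. A dye difference would cancel in it only if it were constant, which was not tested. TOD6, for a repressor of ribosome biogenesis genes, was called higher in the labelled double null (0.73, adjusted p = 0.0263) and read -0.19 and -0.16 in the other strains.

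Most chromosomal neighbours of the members were not called lower. Of 90 measured flanking genes that encode no ribosomal protein, 15, 5 and 23 were called lower and 9, 3 and 9 higher in the labelled gcr1 null, the nup84 null and the labelled double null, with medians of -0.13, -0.02 and -0.25. These counts stand beside 17.7%, 8.09% and 18.9% of all genes called lower and 17.2%, 8.61% and 20.5% called higher. The flanking gene with the largest fall in each strain was RKI1, which encodes an enzyme of the pentose phosphate pathway and lies beside RPS7A, at -2.71, -1.70 and -2.75. Another ribosomal protein gene lies next to 7 members: RPS9B, RPS14B, RPS15, RPS16A, RPS16B, RPS19B and RPS22A. RPS14B and RPS22A, which adjoin each other, read -1.77 and -2.68 in the labelled gcr1 null, -1.02 and -1.23 in the nup84 null, and -1.57 and -2.57 in the labelled double null.

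**Figure D5:**
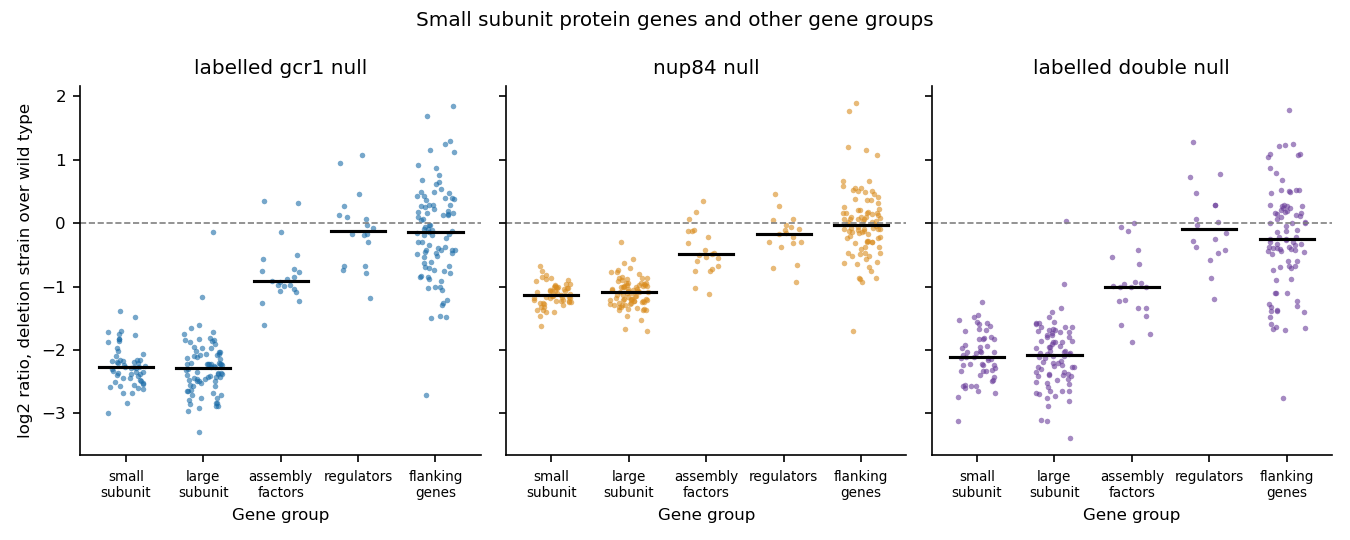
Log2 ratio of deletion strain over wild type (vertical axis) of each gene in 5 groups (horizontal axis), 1 panel a strain, with a black line at the group median. Small and large subunit genes lie lowest, at medians of -2.27 and -2.29 in the labelled gcr1 null, assembly factors at -0.91, and flanking genes around -0.13.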

How the data were processed

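Total RNA of 3 deletion strains and wild type was amplified and labelled with Cy5 and Cy3, per the labels. The deposited table holds 10807 probes and 213 missing values. The authors' deposited values are taken to be log2 of Cy5 over Cy3. No source used here states the base, and 2 is assumed as the one that gives the largest value, 17.745, the smallest ratio. Their scaling, centring and background correction are not given in the sources used here. Brightness of single channels, probe sequences and promoter sequences were not used here, which leaves dim or saturated spots unmarked.

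The platform annotation named 1 gene for 9271 probes, several for 0 and none for 1536. All 9271 entrez identifiers matched the R64 yeast gene table, used only for names and neighbours, and 0 symbols changed. Signs of arrays 3 and 4, with the deletion strain in Cy3, were turned, and probes were averaged per gene. Of the members, 36 had 2 probes and 19 had 1. Arrays were centred on their medians, which ranged from -0.163 to 0.099.

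The design text states dye swaps of each biological sample, and the labels do not say which arrays are swaps. limma 3.58.1 (R 4.3.3) was fitted to means of opposite-dye arrays, first as 1 with 3 and 2 with 4 and then as 1 with 4 and 2 with 3, keeping the larger p and SE, with Benjamini-Hochberg adjustment over 5636 genes. Nothing says that samples came from separate cultures, so p-values measure the spread between these samples. A minus B differences were fitted the same way over the 61 gene pairs whose symbols differ only in a final A or B. The fits were tested on simulated data.

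The members given on every array are the 4 lowest and 4 highest in each strain and both genes of the 8 called pairs with the largest mean difference, apart from some genes that are not reported here by name but enter all fits and counts. Values of RPS0, RPS1, RPS4B, RPS6, RPS10, RPS14, RPS24, RPS25 and RPS31 were given beyond that rule after they were seen. So were the pair differences of RPS18 and RPS21. Members and lists were chosen with earlier results of these data known. Same-numbered samples of different strains correlated in their deviations from the strain means at -0.005 to 0.552, so the numbers were not taken to pair samples. Alternatives changed the pairing, centring, scaling, probe choice, variance filter and samples. Figures were drawn with matplotlib 3.10.9.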

Additional observations from a re-analysis of the deposited data

Results flagged for a closer look

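Each result here is an A minus B difference of log2 ratios that differed between strains by limma's test of that difference, adjusted over the 61 A and B pairs of the array. RPS9 gave -1.37 for the nup84 null minus the labelled gcr1 null (adjusted p = 0.000365) and -1.05 for the labelled double null minus the labelled gcr1 null (adjusted p = 0.0016). RPS22 gave 0.89 for the nup84 null minus the labelled gcr1 null (adjusted p = 0.0265), with both samples below 0 in the latter and above 0 in the former. For the same contrast RPS16 gave -0.46 (adjusted p = 0.0384), RPS21 gave -0.26 (adjusted p = 0.0384) and RPS25 gave -0.30 (adjusted p = 0.0457). RPS25 also differed between the labelled double null and the nup84 null, by 0.37 (adjusted p = 0.0405). No array stood apart from the other 3 of its strain by Dixon's test in 168 tests, of each member and of the member median. With 4 values a test, only a very large departure would pass, and A minus B differences were not tested in this way. RPS14 A minus B, for example, read -0.20, -1.43, -0.10 and -0.15 on arrays 1 to 4 of the labelled gcr1 null.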

How the results depend on the processing

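The fall of the members kept its direction under every alternative run, for every gene given on all arrays. A limit of 2-fold (treat) left 49, 0 and 41 of 55 genes called lower in the labelled gcr1 null, the nup84 null and the labelled double null. Leaving out 1 sample, with the lone sample assumed to vary like the other strains, gave 53 to 55, 0 to 55 and 55 calls. The member medians then ran from -2.56 to -2.06, -1.28 to -0.98 and -2.35 to -1.93. Scaling moved the medians of the nup84 null and the labelled double null to -1.38 and -1.73. The Cy5 arrays alone gave -0.86 and -1.59 there, and the Cy3 arrays alone -2.63, -1.37 and -2.62 in the 3 strains. The causes of these shifts were not tested.

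Counts of members that differed between strains, 0 in the fits reported, depended on the settings. The second pairing, arrays 1 and 4 and arrays 2 and 3, goes against the correlations between arrays given above, so its higher counts may understate the spread between samples. For the nup84 null minus the labelled gcr1 null they were 8 without the 10% most variable genes, 29 with arrays as replicates, 54 with arrays 1 and 4 and arrays 2 and 3 as swaps, 52 with dye orientation as a block, 1 with the replicate block and 0 to 54 without 1 sample. The same settings gave 6, 20, 53, 47, 1 and 0 to 54 for the labelled double null minus the nup84 null. For the labelled double null minus the sum they gave 4, 27, 55, 53, 0 and 0 to 55, and scaling gave 50. For the labelled double null minus the labelled gcr1 null, the second pairing gave 15, the dye block 2 and leaving out 1 sample 0 to 13.

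Called pairs in the nup84 null (2) were 4 with arrays as replicates, 7 with the second pairing, 1 with the first probe, 1 with Cy3 arrays, 5 with the dye block, 1 with the replicate block and 5 with scaling. In the labelled double null (11) the second pairing gave 18. Without 1 sample the pairs numbered 1 to 12, 0 to 8 and 9 to 17 in the 3 strains. Pairs called in the nup84 null minus the labelled gcr1 null (5) were 9 with the second pairing, 1 with Cy3 arrays, 2 with Cy5 arrays, 3 with the replicate block and 1 to 10 without 1 sample. Those in the labelled double null minus the labelled gcr1 null (1) were 3 with arrays as replicates, 4 with the second pairing, 5 with the dye block and 1 to 6 without 1 sample. Those in the labelled double null minus the nup84 null (1) were 4 without the most variable genes, 4 with arrays as replicates, 2 and 12 with the first and the second pairing alone, 0 with Cy3 arrays, 10 with the dye block, 3 with the first probe, 3 with the replicate block, 0 with scaling and 0 to 13 without 1 sample. The call for RPS9 in the labelled gcr1 null was kept under all 24 alternatives, with adjusted p from 1.39e-09 to 0.0011. The replicate block adds sample number, and whether that number pairs samples across strains is not labelled. Promoter motif counts planned for the members were not run.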
